A study of Homo sapiens with 8 samples.

Results

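The 10 genes described here are ATF4, the stress-induced transcription factor, 5 genes it is known to induce (DDIT3, TRIB3, CHAC1, ASNS and SLC7A11), and 4 genes of serine and glycine synthesis (PHGDH, PSAT1, PSPH and SHMT2). They were taken by name, and every array probe annotated to them was used, which gave 12 probes of the 50599 tested and 10 genes of the 21524 with a probe. The values come from 8 Agilent 1-colour arrays of total RNA labelled as NGP, an established human neuroblastoma line. In 4 arrays the cells had received CFC1 cDNA by lentivirus, and in the other 4 a mock lentiviral construct; cells of both groups were selected with puromycin. Nothing in the labels tells whether replicates were cultured separately; p-values here therefore reflect variation among arrays that could be purely technical.

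ATF4 is translated more when the initiation factor eIF2 is phosphorylated during amino acid shortage, endoplasmic reticulum stress, haem deficiency or viral infection, and it then switches on genes for amino acid synthesis, import and charging of tRNA. Its own mRNA is therefore only a partial readout of its activity. The serine pathway diverts 3-phosphoglycerate from glycolysis through PHGDH, PSAT1 and PSPH to serine, and SHMT2 splits serine in mitochondria into glycine and a one-carbon unit for nucleotide synthesis. In neuroblastoma with extra MYCN copies these serine genes are known to be highly expressed and to depend on both MYCN and ATF4.

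CFC1 encodes Cryptic, a co-receptor of Nodal, and its own probe was not higher where the labels say it should be. It averaged -0.38 ± 0.34 in the arrays labelled CFC1 and 0.42 ± 0.50 in the mock arrays (SD, n = 4 each), a difference of -0.80 (adjusted p = 0.0398 in limma; exact two-sided permutation p = 0.0571, where 0.0286 is the smallest possible). The call was lost in 9 of 16 alternative settings, among them leaving out replicate 2, 3 or 4 of the arrays labelled CFC1 (adjusted p = 0.0994, 0.0961 and 0.0696) or mock replicate 1 or 2 (0.0848 and 0.061). A block on the replicate number in limma also ended the call (adjusted p = 0.0761). Whether that probe lies within the transduced cDNA was not determined, so the group is called the arrays labelled CFC1 and every direction below rests on the labels. The groups were far apart over the whole array: 42.1% of all probes passed an adjusted p of 0.05 in limma, 20.0% being higher where the label is CFC1 and 22.1% being lower, and in 42.6% the groups did not overlap. Each value is a log2 deviation of a probe from a baseline that the sources used here do not state. It shows differences between arrays for that probe and no level of expression, so the neuroblastoma identity cannot be checked by level. On the mean of each gene's probes, 29.7% of all genes were higher and 28.2% lower, with a median difference of -0.09. Of 9 measured markers of noradrenergic neuroblastoma cells 0 rose and 7 fell (median -0.62). Of 9 fibroblast markers THY1, named after its value was seen, rose and 6 fell (median -0.46). Those with the largest differences were DDC (-2.51, from probes at -3.35 and -1.68), CHGB (-2.48), ISL1 (-2.18) and CHGA (-1.14; -0.72 after quantile normalization) of the first list, and PDGFRA (-2.78), COL3A1 (-1.88; -1.25 after quantile normalization), COL1A1 (-1.44) and DCN (-1.13, from probes at -2.10 and -0.17) of the second. The mean over the noradrenergic markers ran from -0.12 to 0.02 in the arrays labelled CFC1 and from 0.97 to 1.06 in the mock arrays, and that over the fibroblast markers from -0.17 to -0.04 and from 0.71 to 0.84 in the same order of groups. The part of either marker list in the results below was not tested.

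Of the 12 probes, 9 (75.0%, against 42.1% of all probes) passed the threshold: 6 were higher in the arrays labelled CFC1 (20.0% of all probes were) and 3 were lower (22.1% of all probes were). The 6 belong to ATF4, TRIB3, CHAC1 (both of its probes), SLC7A11 and PHGDH, and the 3 to DDIT3, PSPH and SHMT2. The single probe of ASNS and both probes of PSAT1 did not pass. The share over all probes includes 18606 probes with no gene symbol. By genes, 8 of the 10 members were called, against 57.9% of all genes. Of the 10 members, 5 were higher (29.7% of all genes were) and 3 lower (28.2% of all genes were). The members were chosen with earlier results of these data known. In 10 of the 12 probes the groups did not overlap, against 42.6% of all probes. Differences of at least 1 log2 unit that also passed the threshold were found for 2 of the 12, against 15.6% of all probes. They were those of SLC7A11 and a CHAC1 probe. That count depended on the setting. After quantile normalization SLC7A11 A_33_P3242623 stood at 0.985 and CHAC1 A_33_P3376965 at 0.837, both below 1, and without mock replicate 3 the CHAC1 probe stood at 0.877. If the values are natural logarithms, DDIT3 A_23_P21134 (-1.023) and PSPH A_32_P78816 (-1.034) also pass 1. The median difference was 0.14 over the 12 probes and -0.14 over all probes.

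**Figure D1:**
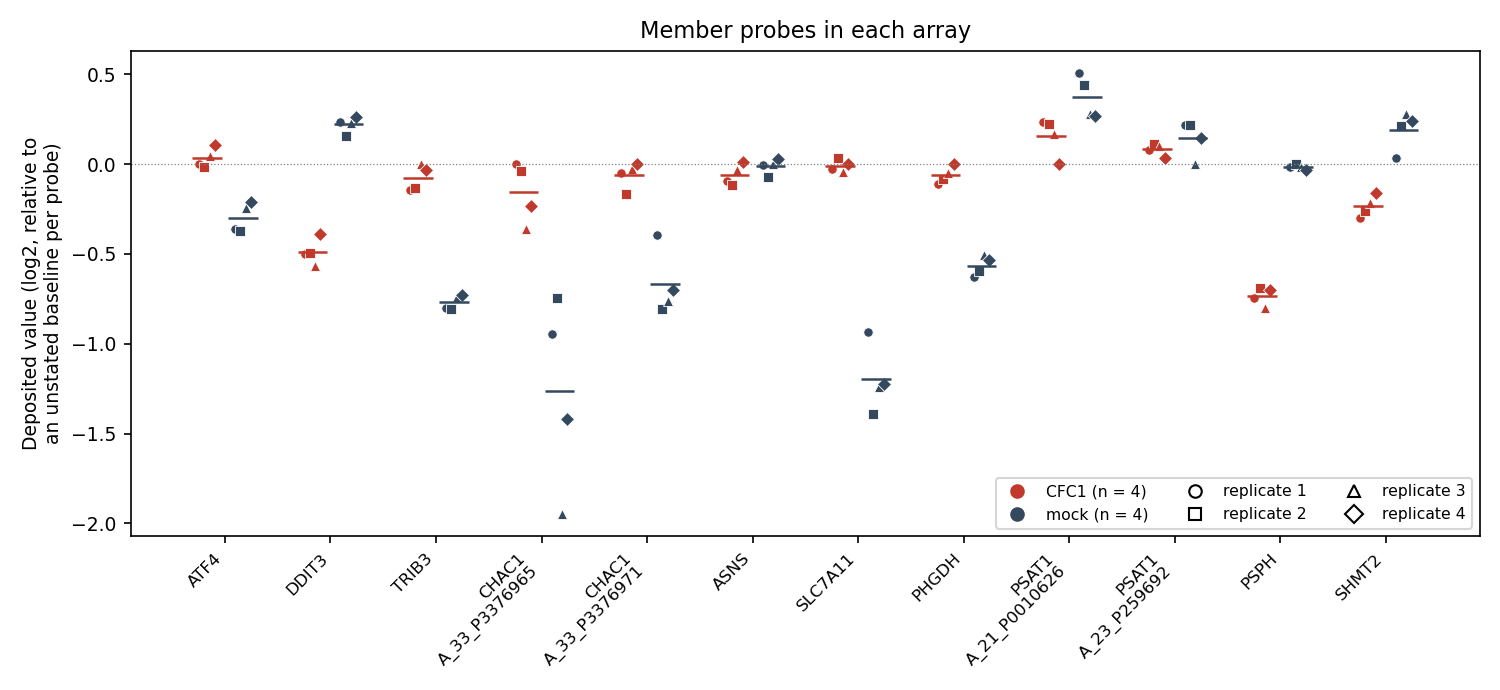
Deposited value (log2, relative to an unstated baseline for each probe) of the 12 member probes in each array, with the arrays labelled CFC1 in red left of the mock arrays in dark blue; points are single arrays, marker shapes give the replicate number and bars the mean of 4 arrays. The groups overlap only for ASNS and for PSAT1 probe A_23_P259692, and the widest spread is that of CHAC1 probe A_33_P3376965 in the mock arrays.

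ATF4 mRNA was modestly higher. Its probe gave 0.00, -0.02, 0.05 and 0.11 in the arrays labelled CFC1, replicates 1 to 4, against -0.36, -0.37, -0.25 and -0.21 in the mock arrays. Every array labelled CFC1 lay above every mock array. ATF4 rose by 0.33 log2 units (95% interval 0.20 to 0.47, adjusted p = 0.00208), a ratio of 1.26. Its absolute size lay at the 48.6th percentile of all probes, so close to the middle of the array.

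The stress regulators downstream of ATF4 went in opposite directions. DDIT3 encodes CHOP, a transcription factor that promotes cell death under prolonged stress. Its values were -0.50, -0.50, -0.57 and -0.39 in the arrays labelled CFC1, against 0.24, 0.16, 0.23 and 0.26 in the mock arrays. All 4 of the first group lay well below the other 4, and DDIT3 fell by 0.71 (95% interval -0.84 to -0.58, adjusted p = 1.93e-05), a ratio of 0.612. TRIB3 encodes a pseudokinase that is induced by ATF4 and CHOP and restrains both. Its values were -0.14, -0.13, 0.00 and -0.03 in the arrays labelled CFC1, against -0.80, -0.81, -0.74 and -0.73 in the mock arrays. The groups were separated by far more than the spread within either, and TRIB3 rose by 0.69 (95% interval 0.57 to 0.81, adjusted p = 1.83e-05), a ratio of 1.62. The intervals of DDIT3 and TRIB3 lie on opposite sides of 0.

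Among the effector genes, CHAC1 and SLC7A11 rose and ASNS did not pass the test. CHAC1 encodes an enzyme that breaks down glutathione. Its probe A_33_P3376965 gave 0.00, -0.04, -0.36 and -0.23 in the arrays labelled CFC1, against -0.95, -0.74, -1.95 and -1.42 in the mock arrays, a difference of 1.11 (95% interval 0.50 to 1.72, adjusted p = 0.00989). Its probe A_33_P3376971 gave -0.05, -0.17, -0.02 and 0.00 in the arrays labelled CFC1, against -0.39, -0.81, -0.76 and -0.70 in the mock arrays, a difference of 0.61 (95% interval 0.38 to 0.84, adjusted p = 0.00145). The groups were apart for both probes and the intervals of the probes overlap. Mock replicate 3 was the lowest array for the first probe and mock replicate 2 for the second, so the probes did not order the mock arrays alike. The SD of the first probe was 0.54 over the mock arrays, the largest of any member probe in either group, and 0.17 over the arrays labelled CFC1.

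SLC7A11 had the largest difference of the 10 genes. It encodes xCT, the transporter that exchanges glutamate for cystine, from which glutathione is made. Its values were -0.03, 0.04, -0.05 and 0.00 in the arrays labelled CFC1, against -0.93, -1.39, -1.24 and -1.22 in the mock arrays. The arrays labelled CFC1 were nearly identical (SD 0.035) and all mock arrays lay far below them (SD 0.192). SLC7A11 rose by 1.19 (95% interval 0.96 to 1.41, adjusted p = 2.79e-05), a ratio of 2.28.

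ASNS, asparagine synthetase, is a textbook ATF4 target, and its probe showed no call. Its values were -0.10, -0.12, -0.03 and 0.01 in the arrays labelled CFC1, against 0.00, -0.07, 0.00 and 0.03 in the mock arrays. The groups overlapped, and the difference was -0.05 (adjusted p = 0.473), with a sign that turned after quantile normalization (0.02). Its 95% interval, -0.16 to 0.07, does not reach the difference found for ATF4.

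The promoters of CHAC1 and ASNS are shown because they hold the element through which ATF4 and its C/EBP partners are known to act, while their probes differed in outcome. The element was searched as TGATGNAAN on both strands (its reverse complement is NTTNCATCA) in RefSeq windows of 250 bases before to 50 after each annotated start, in build GRCh38.p14. Of all 35116 windows 3.61% held it. Windows were given for 7 of the 10 genes, ATF4, DDIT3, TRIB3, CHAC1, ASNS, PHGDH and PSAT1, and 2 of their 12 windows held a match, which is shown in capitals. In the CHAC1 window (chr15:40953221-40953520, plus strand) the match is GTTGCATCA, on the reverse strand, and 201 bases separate it from the start. In the ASNS window (chr7:97872359-97872658, minus strand) the match is TGATGAAAC, and 59 bases separate it from the start. A match is a description of the letters, and no match says only that they are not in the window.
CHAC1: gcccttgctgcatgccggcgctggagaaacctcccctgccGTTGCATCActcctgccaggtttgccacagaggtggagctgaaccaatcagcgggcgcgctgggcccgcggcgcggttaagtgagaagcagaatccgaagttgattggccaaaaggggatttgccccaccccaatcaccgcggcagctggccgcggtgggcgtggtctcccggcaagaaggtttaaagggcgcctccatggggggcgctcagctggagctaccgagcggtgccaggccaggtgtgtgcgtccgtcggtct
ASNS: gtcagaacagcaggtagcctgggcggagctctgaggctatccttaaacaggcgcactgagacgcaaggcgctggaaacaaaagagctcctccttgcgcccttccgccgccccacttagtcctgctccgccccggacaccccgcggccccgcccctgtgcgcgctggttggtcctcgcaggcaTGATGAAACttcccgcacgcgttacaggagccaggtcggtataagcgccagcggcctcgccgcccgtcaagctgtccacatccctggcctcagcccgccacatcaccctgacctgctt

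The enzymes of serine synthesis did not move as a unit. PHGDH, which catalyses the committed first step, gave -0.11, -0.08, -0.05 and 0.00 in the arrays labelled CFC1, against -0.63, -0.59, -0.50 and -0.53 in the mock arrays. The arrays labelled CFC1 were all higher, and PHGDH rose by 0.50 (95% interval 0.39 to 0.62, adjusted p = 8.32e-05), a ratio of 1.42. PSAT1, the aminotransferase of the second step, had 2 probes. PSAT1 A_21_P0010626 gave 0.24, 0.22, 0.17 and 0.00 in the arrays labelled CFC1, against 0.51, 0.44, 0.28 and 0.27 in the mock arrays, a difference of -0.22 (95% interval -0.41 to -0.03, adjusted p = 0.0709). PSAT1 A_23_P259692 gave 0.08, 0.12, 0.10 and 0.04 in the arrays labelled CFC1, against 0.22, 0.22, 0.00 and 0.15 in the mock arrays, a difference of -0.06 (95% interval -0.21 to 0.08, adjusted p = 0.446). The groups were apart for the first probe and overlapped for the second, and neither passed. The sign of both turned after quantile normalization (0.07 and 0.15), and the first passed with array weights (-0.23, adjusted p = 0.0499).

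PSPH, the phosphatase that releases serine in the last step, was lower. Its values were -0.74, -0.69, -0.80 and -0.70 in the arrays labelled CFC1, against -0.02, 0.00, -0.02 and -0.03 in the mock arrays. The mock arrays were nearly identical (SD 0.014, the smallest of any member probe in either group), and PSPH fell by 0.72 (95% interval -0.82 to -0.62, adjusted p = 5.53e-06), a ratio of 0.608. Whether its probe also detects PSPHP1, a partial copy of the gene on the same chromosome, is unknown. The intervals of PHGDH and PSPH lie on opposite sides of 0, so the first and last steps of the pathway differed in direction between the same arrays. SHMT2 gave -0.30, -0.26, -0.22 and -0.16 in the arrays labelled CFC1, against 0.03, 0.21, 0.28 and 0.24 in the mock arrays. The groups did not overlap although mock replicate 1 stood below the other mock arrays, and SHMT2 fell by 0.43 (95% interval -0.58 to -0.27, adjusted p = 0.00127), a ratio of 0.744.

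**Figure D2:**
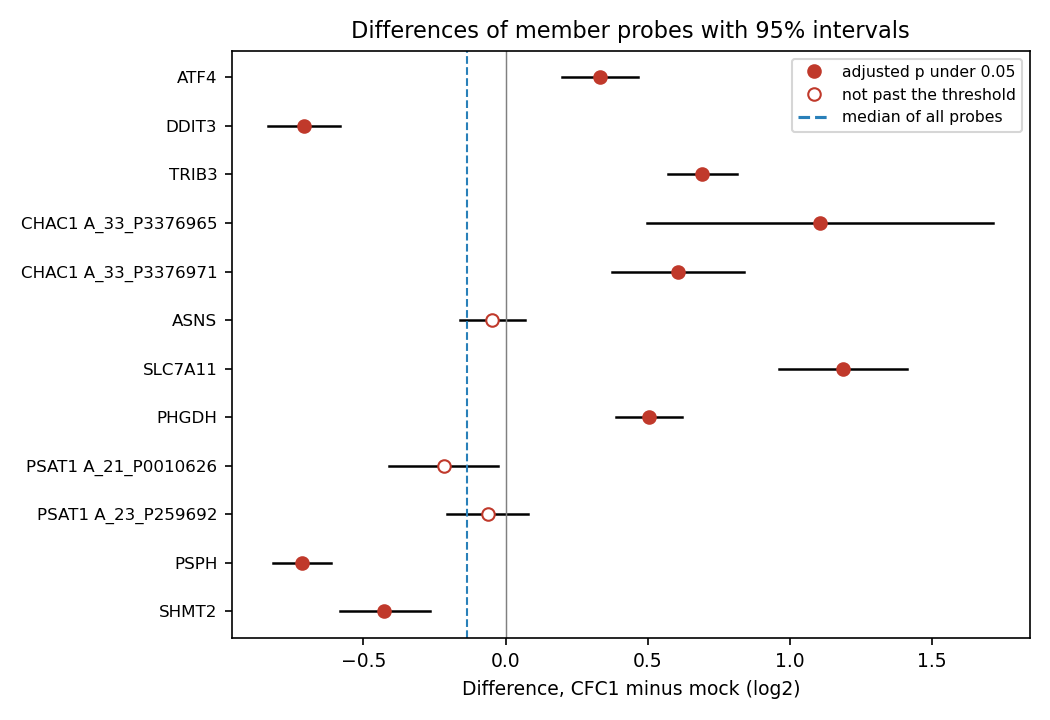
Difference between the arrays labelled CFC1 and the mock arrays (log2, horizontal axis) for each member probe, with 95% intervals from limma; filled points passed an adjusted p of 0.05 and the dashed line is the median of all probes (-0.14). The 6 probes of ATF4, TRIB3, CHAC1, SLC7A11 and PHGDH lie to the right of 0 and those of DDIT3, PSPH and SHMT2 to the left.

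The group that lay away from the baseline was not the same for all members. For TRIB3, SLC7A11, PHGDH and ATF4 the mock arrays averaged -0.77, -1.20, -0.56 and -0.30 while the arrays labelled CFC1 averaged between -0.08 and 0.03. For PSPH the arrays labelled CFC1 averaged -0.73 and the mock arrays -0.02. For DDIT3 the groups lay on either side, at -0.49 in the arrays labelled CFC1 and 0.22 in the mock arrays. With the baseline unstated, a rise or fall gives only the distance between groups, not which of them moved.

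DDIT3 and SHMT2 are the members on chromosome 12, next to the region around CDK4 and MDM2 of which NGP is known to carry extra copies. In RefSeq order over the genes measured here, SHMT2 comes 9 genes before DDIT3, and DDIT3 13 genes before CDK4, the kinase of G1 progression. CDK4 averaged 0.02 in the arrays labelled CFC1 and 2.36 in the mock arrays, a difference of -2.34 (SE 0.043, adjusted p = 7.05e-09). All 10 measured genes that follow CDK4 fell, by log2 differences from -4.81 to -1.89 (28.2% of all genes fell). Of the 12 genes between DDIT3 and CDK4, 11 fell and B4GALNT1, named after its value was seen, rose by 0.88 (median -0.98). These counts were the same after quantile normalization and after centring each array on its median. Of the 8 genes between SHMT2 and DDIT3, 4 fell, 2 rose (3 after quantile normalization) and 2 did not pass (median -0.23). MARS1, methionyl-tRNA synthetase, is the measured gene just before DDIT3 and overlaps its end by 65 bases in RefSeq. MARS1 averaged -0.02 in the arrays labelled CFC1 and 0.38 in the mock arrays, and fell by 0.40 (SE 0.035, adjusted p = 2.54e-05; -0.22 after quantile normalization). Whether the labelled RNA kept the strand is not given in the sources used here. Copy number was not measured, and its part in the values of DDIT3 and SHMT2 was not tested.

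**Figure D3:**
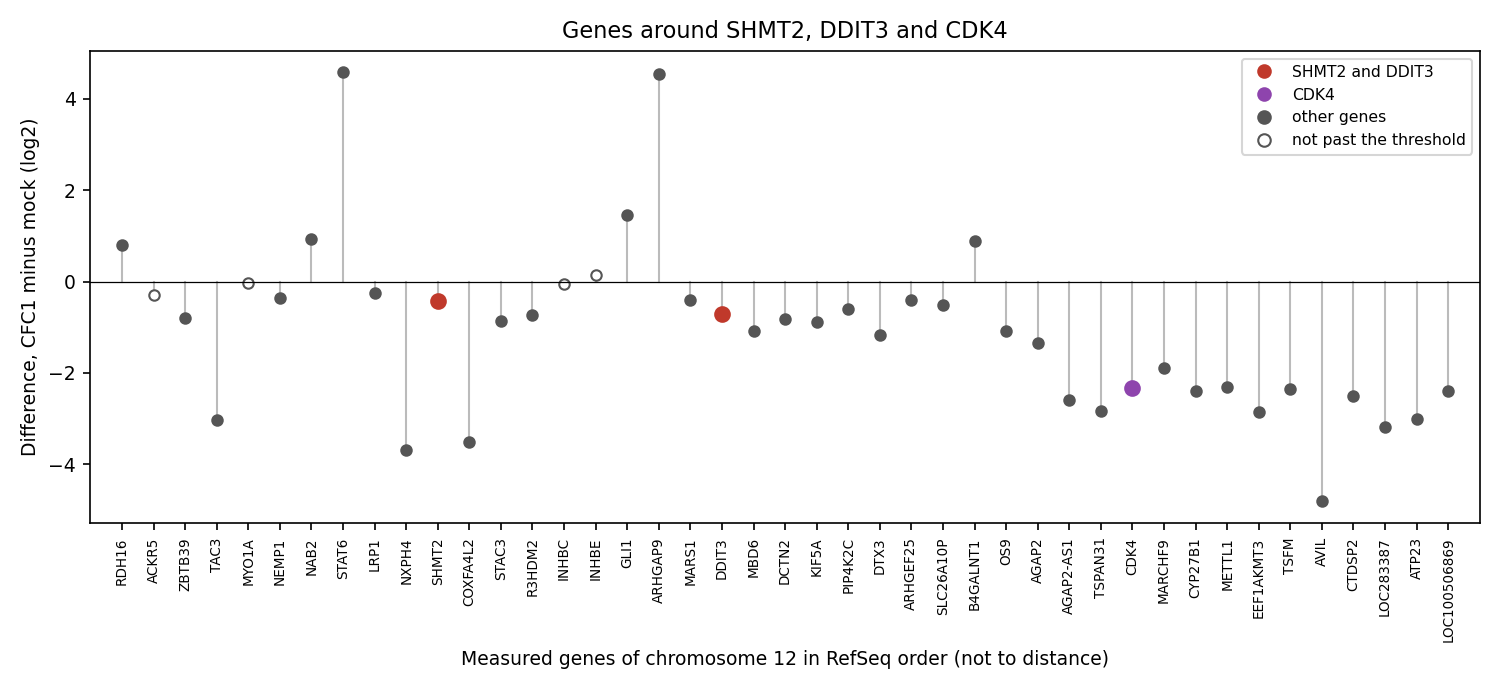
Difference of gene means between the arrays labelled CFC1 and the mock arrays (log2, vertical axis) for measured genes of chromosome 12 in RefSeq order, from 10 genes before SHMT2 to 10 after CDK4; open points did not pass an adjusted p of 0.05. SHMT2 (-0.43) and DDIT3 (-0.71) are in red, CDK4 (-2.34) in purple, and the genes from CDK4 onward all lie at -1.89 or lower.

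The genes whose values over the 8 arrays lay closest to a member's were found by root mean square distance among 19433 named genes. For ATF4 they were PACSIN2 (distance 0.03), UTP18 (0.04) and SH3GL1 (0.04), and the nearest other member was PHGDH, at rank 2417 with a distance of 0.20. For SLC7A11 they were SCARNA9 (0.06), ZDBF2 (0.08) and PRR13 (0.09), and the nearest other member was CHAC1, at rank 609 with a distance of 0.26. No member was thus among the 3 genes nearest to ATF4 or to SLC7A11. The distance compares the values themselves, so genes with group differences of unlike size lie apart even where they vary together. Whether the members vary together was not tested.

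The further genes of the response were described by lists, on the mean of each gene's probes and against 29.7% of all genes higher, 28.2% lower and 57.9% called in all. The median difference over all genes was -0.09. Of 28 other ATF4 targets, 17 rose and 8 fell, with a median of 0.22. The death receptor TNFRSF10B and the stress cytokine GDF15 rose by 4.91 (SE 0.071) and 2.99 (SE 0.096). The secreted glycoprotein STC2 fell by 1.79 (SE 0.067) and the angiogenic factor VEGFA by 1.77 (SE 0.043; -2.91 after quantile normalization). All 4 are also known targets of other stress pathways. Of 17 measured genes of glycine and one-carbon folate metabolism, 7 rose and 6 fell, with a median of 0.10. GLDC, the glycine decarboxylase, rose by 3.32 (SE 0.038), GCAT, which splits a threonine-derived intermediate into glycine, by 1.68 (SE 0.055) and TYMS, thymidylate synthase, by 1.34 (SE 0.049). ALDH1L1, the cytosolic formyltetrahydrofolate dehydrogenase, fell by 2.55 (SE 0.247).

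Amino acid transporters rose more often than they fell, with 8 higher and 2 lower of 15 (median 0.26). SLC36A4 rose by 4.62 (SE 0.078). SLC7A5, a carrier of large neutral amino acids, rose by 0.96 (SE 0.061). SLC3A2, the heavy chain that pairs with both SLC7A5 and SLC7A11, rose by 0.85 (SE 0.032). SLC7A8 rose by 2.67 as the mean of probes at -0.14 and 5.48, so its mean describes neither. Of 19 cytosolic aminoacyl-tRNA synthetases, 11 rose and 4 fell (2 after quantile normalization), with a median of 0.17. Those for cysteine and serine, CARS1 and SARS1, rose by 1.43 (SE 0.060) and 0.77 (SE 0.036), and those for leucine and methionine, LARS1 and MARS1, fell by 0.49 (SE 0.043) and 0.40.

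Upstream of ATF4, the list held the eIF2 kinases and their regulators, eIF2, eIF2B and subunits of the eIF2 phosphatase. Of its 16 measured genes, 7 rose and 4 fell (2 after quantile normalization), with a median of 0.135. EIF2S1 and EIF2S2, the alpha and beta subunits of eIF2, rose by 0.73 (SE 0.040) and 0.83 (SE 0.039). EIF2AK2, the kinase PKR, fell by 0.55 (SE 0.038), and IMPACT, an inhibitor of the kinase GCN2, by 0.60 (SE 0.135), a call lost after quantile normalization (-0.31, adjusted p = 0.146). GCN2 itself (EIF2AK4) and the kinase PERK (EIF2AK3), named after their values were seen, also fell, by 0.51 (SE 0.038) and 0.29 (SE 0.048). EIF2AK2 kept its call after quantile normalization. With 2 falls left in the list there, EIF2AK4 and EIF2AK3 did not both keep theirs. Phosphorylation of eIF2 was not measured.

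In the ATF6 and XBP1 arms of the unfolded protein response, 10 of 19 genes rose and 6 fell, with a median of 0.215, and none of the falls passed after quantile normalization. MANF rose by 1.62 (SE 0.036), EDEM1 by 1.03 (SE 0.098), HYOU1 by 0.82 (SE 0.085) and PDIA4 by 0.82 (SE 0.031). MANF is a secreted stress protein, EDEM1 takes part in glycoprotein degradation, HYOU1 is a chaperone and PDIA4 a disulphide isomerase. Among the 6 falls were XBP1 itself (-0.18) and HSPA5 (-0.19), both named after their values were seen. Of 15 NRF2 targets and glutathione genes, the other set known to include SLC7A11, 10 rose and 3 fell (1 after quantile normalization), with a median of 0.68. NQO1, a quinone reductase, rose by 5.08 (SE 0.176), ME1, malic enzyme, by 4.52 (SE 0.251), HMOX1, haem oxygenase, by 3.53 (SE 0.028) and TALDO1, transaldolase, by 1.03 (SE 0.046). The adjusted p-values (limma) of the list genes named here were 0.00556 or less, apart from XBP1 (0.00826) and HSPA5 (0.0406).

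**Figure D4:**
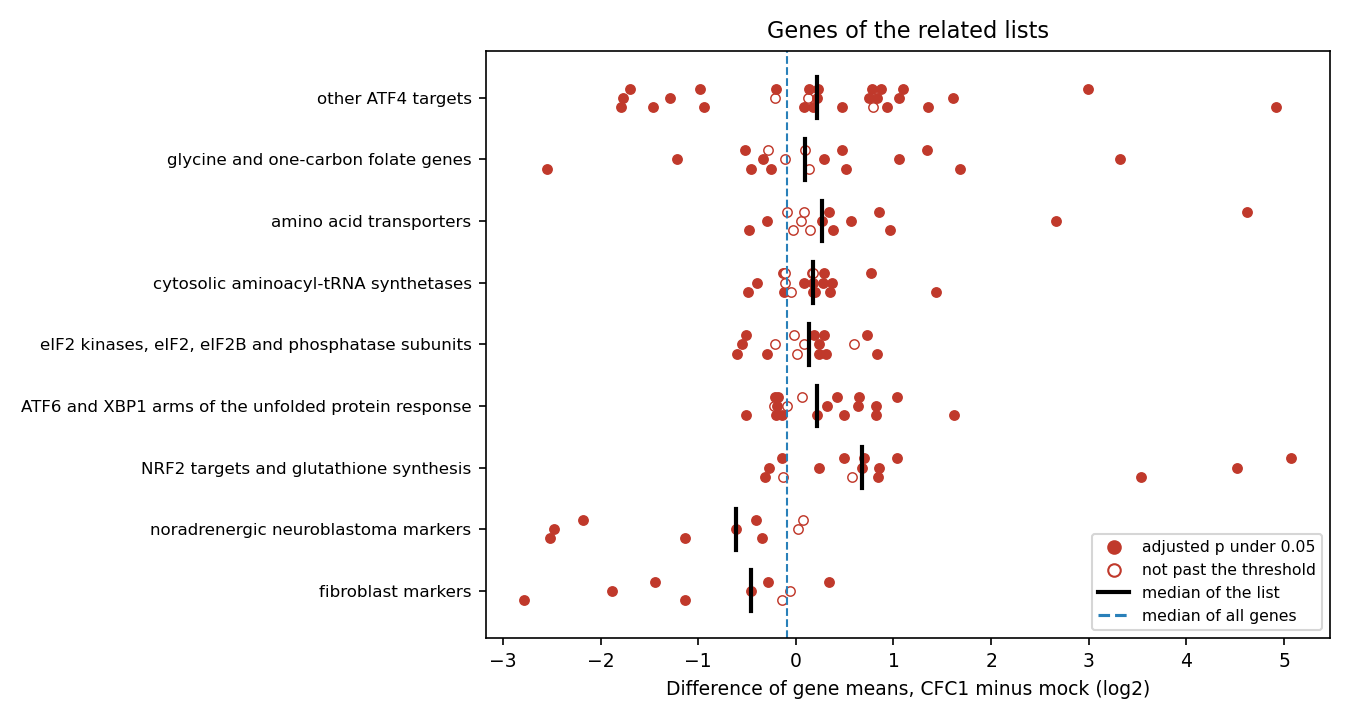
Difference of gene means between the arrays labelled CFC1 and the mock arrays (log2, horizontal axis) for the measured genes of 9 lists; each point is a gene, filled where the adjusted p was below 0.05, the black bar is the median of the list and the dashed line that of all genes (-0.09). The median is highest for NRF2 targets and glutathione synthesis (0.68) and lowest for the noradrenergic markers (-0.62).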

How the data were processed

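Total RNA of 8 samples was labelled with Cyanine3 and hybridised to 1-colour Agilent arrays, per the labels' protocols. The deposited table holds 50739 rows, each with 1 value per array on a log scale that was read as log2. How spots were extracted, corrected and scaled, and which log base was used, is not given in the sources used here. There are no counts, background flags or saturation flags, so no filter on dim probes was possible, and precision is limited by the number of arrays. Leaving out 140 control spots gave 50599 probes; 31993 had 1 gene symbol, 0 several and 18606 none. Symbols came from the platform annotation and were updated through RefSeq (assembly GRCh38.p14) for 28419 probes by accession, 3072 by symbol and 480 by an older synonym. The only coordinates given are those of the promoter windows, in GRCh38.p14. The order of genes on chromosome 12 was taken from RefSeq. Some genes of the lists were not analysed here.

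Probes were compared with limma 3.58.1 under R 4.3.3, by lmFit and eBayes with equal weights, no trend and no replicate block, with two-sided p-values adjusted by Benjamini-Hochberg over all probes and a threshold of 0.05. Lists, CFC1 and the neighbouring genes of chromosome 12 were described on the mean of each gene's probes, with adjustment over 21524 genes. The members and lists were chosen with earlier results of these data known. The text names every member probe, CFC1, up to 4 genes of each list with the largest difference among called genes whose groups did not overlap, the 3 genes nearest to ATF4 and to SLC7A11, and MARS1 and CDK4. THY1, B4GALNT1, XBP1, HSPA5, EIF2AK4 and EIF2AK3 fall outside this rule and were named after their values were seen. Tables and plots used Python 3.11.15, pandas 2.3.3 and matplotlib 3.10.9.

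Alternatives were quantile normalization, centring of arrays, a block on replicate number, array weights, unmoderated variances, a prior variance with a trend, values read as natural logarithms, the mean of a gene's probes in place of single probes, the probe with the lowest spread in place of the mean, and leaving out each array.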

Additional observations from a re-analysis of the deposited data

How the results depend on the processing

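The 9 called member probes kept their call and direction under quantile normalization, centring, array weights, a trend, unmoderated variances, natural logarithms, the replicate number as a block and without any single array. The number of called member probes or genes ran from 8 to 10 over 16 alternatives. Probes that had not passed changed sign after quantile normalization: ASNS stood at 0.02, the PSAT1 probes at 0.072 and 0.145, and their mean at 0.108. The mean of the PSAT1 probes passed without mock replicate 3 (-0.181, adjusted p = 0.0379). Quantile normalization left 2 falls among the tRNA synthetases, 2 among the eIF2 genes, 0 in the ATF6 and XBP1 arms and 1 among NRF2 targets. Centring each array on its median left 2, 3, 1 and 1 in the same order. With the lowest-spread probe in place of the mean, 1 noradrenergic marker rose. Several of the largest rises among the list genes were smaller in some settings, with their calls kept. Over the 16 alternatives the lowest values were 3.392 for TNFRSF10B, 2.14 for GDF15 and 2.335 for GLDC. For NQO1, ME1 and HMOX1 they were 3.496, 3.075 and 2.506. The cause of these changes was not tested.

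The labels number the arrays 1 to 4 in both groups. Deviations from the group means correlated over probes at 0.132, 0.197, 0.095 and 0.173 for arrays with the same number, and each array correlated best with its own number, a hint from the data and not from the design. With the replicate number as a block 21980 probes were called, against 21289 without it, and 10 member probes, against 9: PSAT1 A_21_P0010626 passed (adjusted p = 0.0232). The call of CFC1 was lost under the block (adjusted p = 0.0761), and also after quantile normalization (0.0678), after centring (0.0582) and with unmoderated variances (0.0662). Read as natural logarithms, all differences would be larger, with the same calls.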

Other observations

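Several members differed between arrays of the same group in a way that followed the replicate numbers. For ATF4, TRIB3, ASNS, PHGDH and SHMT2, 5 of the 12 member probes, both arrays numbered 3 and 4 lay above both numbered 1 and 2 within the arrays labelled CFC1 and again within the mock arrays. Over all probes 9.44% showed that order. CHAC1 probe A_33_P3376965 and PSAT1 probe A_21_P0010626 showed the opposite order in both groups, as 5.98% of all probes did. This arrangement was chosen after the values were seen, and what the numbers stand for is not given in the labels.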
